A study of Mus musculus with 4 samples.

Results

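The genes described here build the route by which newly made proteins enter the endoplasmic reticulum (ER) and travel to the Golgi and back. They were taken by symbol from the deposited expression table. Every row named as a Sec61, Sec62 or Sec63 translocon gene, a COPII or COPI coat gene or a Sec22 family gene was taken. So was every row named as a Tmed gene (grouped as p24 cargo receptors), a Sar1 or Arf GTPase, or a golgin (Golga2 to Golga7). The rule matched 53 of 22565 genes, of which 51 reached 1 FPKM (fragments scaled by transcript length and library depth) in at least 2 of the 4 libraries and were tested. Sec16b and Tmed11 did not.

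RNA came from primary AT2 (alveolar type II) cells that had been sorted from lungs of untreated mice aged 6 months. The 4 libraries are 2 of wild type (WT) and 2 titled knockout (KO). The genotype of KO replicate 1 is given as Fbxo45 knockout and that of KO replicate 2 as Fbxo46 knockout, while the growth protocol names only Fbxo45-cKO mice. No source used here gives the Cre driver, the deleted part of the gene or states that each library is another animal. What the p-values weigh is therefore the variation of these 4 libraries, and that may be technical.

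AT2 cells make and secrete surfactant, and surfactant proteins pass through this route before they reach lamellar bodies. Nascent chains cross the ER membrane through the Sec61 channel, helped by Sec62 and Sec63. COPII vesicles then bud from ER exit sites: the GTPase Sar1 recruits Sec23 and Sec24, which select cargo, and Sec13 and Sec31 form the outer cage. COPI vesicles, made of coatomer recruited by Arf GTPases, return escaped proteins and receptors from the Golgi, p24 proteins cycle in both coats as cargo receptors, and golgins tether vesicles at the Golgi.

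Depth was 4167114 and 8200179 recovered fragments in WT replicates 1 and 2 and 9507433 and 7066424 in KO replicates 1 and 2. Fbxo45, the targeted gene, stood at 4.6 and 5.91 FPKM in WT against 4.41 and 7.58 in KO replicates 1 and 2, and Fbxo46 at 3.79 to 4.8 FPKM in all 4. Their overlap means that the level of neither gene bears out the labels, and directions below are those of libraries labelled KO. The surfactant gene Sftpc was at 54458 FPKM in KO replicate 1 and at 87684 to 101544 FPKM in the others. The 10 AT2 markers summed to between 116910 and 130816 FPKM in 3 libraries and to 82294 FPKM in KO replicate 1. That library also held 6 fast skeletal muscle markers at 913 FPKM in sum, against 0.159 to 8.27 FPKM elsewhere, and 5 of the 6 were at 0 in WT replicate 1. In bulk RNA, fewer cells of a type and less RNA per cell cannot be told apart. The T cell markers Cd3d, Cd3e and Cd3g were at 0 in every library, and 3 macrophage markers summed to at most 0.875 FPKM. Markers of other cell types were also detected: club cell markers summed to 812 to 1325 FPKM, AT1 cell markers to 603 to 947 FPKM and fibroblast markers to 15 to 38.5 FPKM. The 3 plasma cell markers found summed to 219 to 250 FPKM, with Tnfrsf17 at 0 throughout. In each KO-labelled library 2 of these 3 were at 0, so the sum there is that of the remaining gene and does not by itself show plasma cells. Endothelial markers summed to at most 1.49 FPKM.

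The machinery was abundant and no member passed the test between KO-labelled and WT libraries. The tested members had a median level of 30.8 FPKM, against 10.4 FPKM over all 11055 tested genes, and 45 of 51 lay above that median. Together the 53 genes took 0.548% of all fragments in WT replicate 1 (exact binomial 95% interval 0.541 to 0.555%), 0.577% in WT replicate 2 (0.572 to 0.583%), 0.528% in KO replicate 1 (0.523 to 0.532%) and 0.587% in KO replicate 2 (0.582 to 0.593%). KO replicates 1 and 2 are thus the lowest and the highest of the 4 libraries, on either side of WT. These intervals cover counting error only. With limma on log2(FPKM + 1), 0 of 51 members had an adjusted p under 0.05, as did 0.0% of all tested genes, and members' adjusted p values ran from 0.948 to 0.997. At an unadjusted p under 0.05 there were 4 of 51 members, where the share over all tested genes was 4.84%. edgeR and DESeq2 on recovered fragments also called 0 members, each with 2 at an unadjusted p under 0.05, where the shares over all genes fitted were 3.18% with edgeR and 1.82% with DESeq2. DESeq2 called 0.0457% of the genes it fitted. The standard errors of members in limma ran from 0.186 to 0.458 on the log2 scale, and an adjusted p over the threshold does not show that levels were equal. The median log2 difference was -0.063 over members and 0.035 over all tested genes, with 23 members higher and 28 lower in the KO-labelled libraries. Both KO-labelled libraries exceeded both WT libraries in FPKM in 9 of 51 members (20.0% of all tested genes) and were under both in 7 (15.1%). On CPM these were 7 (16.4%) and 10 (17.1%). Arf4, Arf5, Arf6, Copa, Copg2, Golga2, Sec61a2, Tmed1, Tmed5 and Tmed8 overlap a coding gene on the opposite strand and are uncertain. Sec31b, Tmed7 and Tmed11 overlap a coding gene on the same strand (Gm20538, Ticam2 and Vmn2r8) and are uncertain too.

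**Figure D1:**
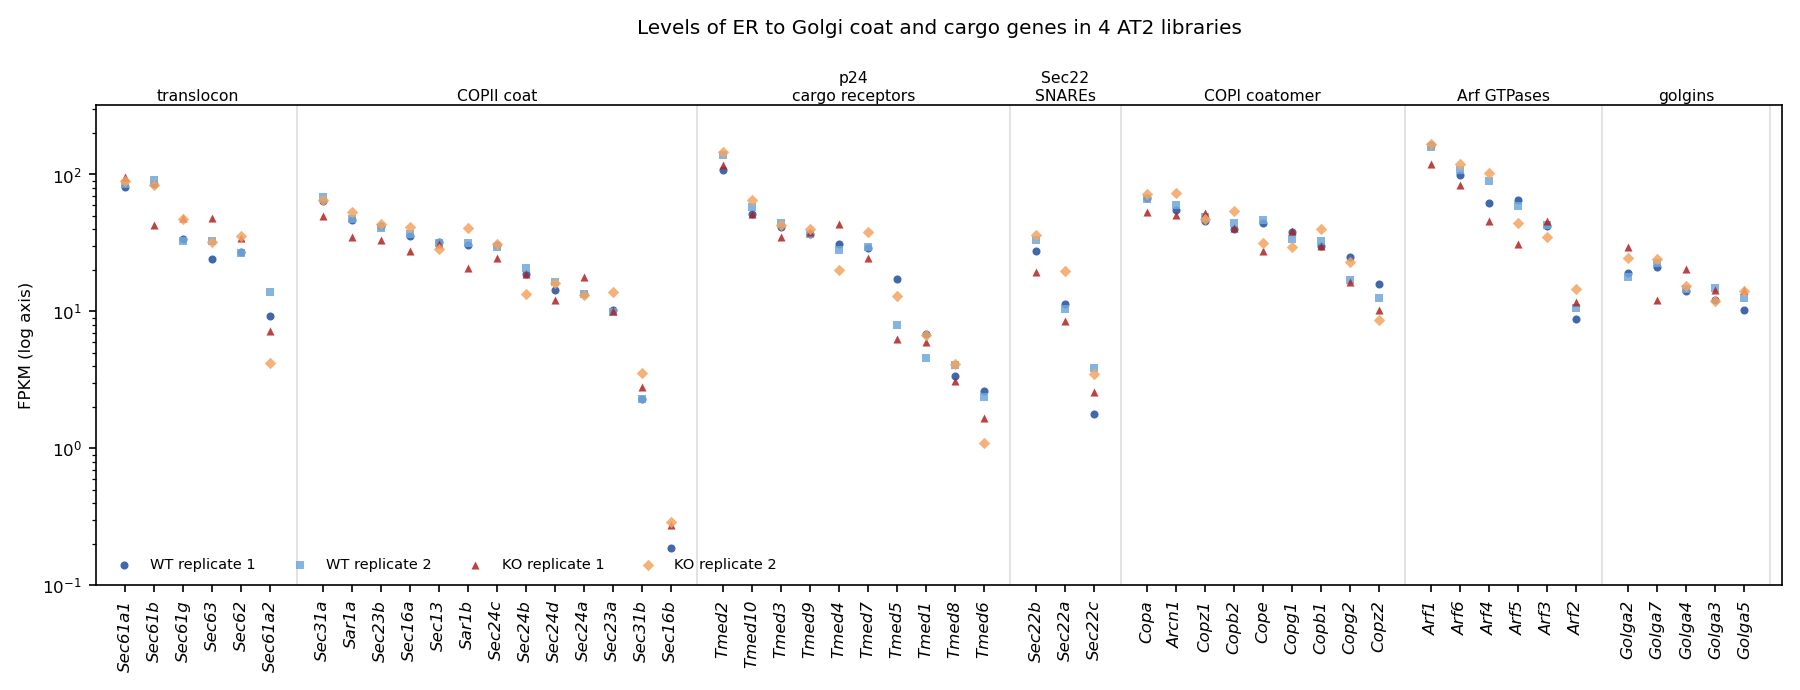
FPKM (log axis) of 52 members in each of the 4 libraries, grouped by role and ordered by mean level within a role; Tmed11, at 0 in every library, is left out, and Sec16b has no point in WT replicate 2, where it is at 0. The most abundant members are Arf1, Tmed2, Arf6 and Sec61a1, and for most genes the 4 libraries lie close together next to the range between genes.

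The 6 translocon genes lay on both sides of WT, 4 higher and 2 lower, with a median log2 difference of 0.25. Sec61a1, the pore-forming alpha subunit, was at 81.2 and 85.6 FPKM in WT against 95.6 and 89.2 in KO replicates 1 and 2. In CPM the Sec61a1 groups overlapped, at 272 and 284 in WT against 350 and 278 in KO replicates 1 and 2. The gene lies in a locus of the table that holds 10 genes. Sec61b, the small beta subunit (chr4:47474658-47483242, plus strand, GRCm38), was at 85.2 and 91.3 FPKM in WT, with KO replicate 1 at 42.4 and KO replicate 2 at 83.6. Sec61g, the gamma subunit (chr11:16500530-16508484, minus strand), had 33.9 and 32.9 FPKM in WT against 48.3 and 47.3 in KO replicates 1 and 2. In FPKM the KO-labelled values of Sec61a1 and Sec61g thus lay above both WT values and those of Sec61b below both. The log2 difference was 0.51 for Sec61g (SE 0.19, limma adjusted p = 0.948), -0.56 for Sec61b (SE 0.336, limma adjusted p = 0.948) and 0.15 for Sec61a1 (SE 0.186, limma adjusted p = 0.965). The Sec61b difference rested on KO replicate 1. It was -1.04 without KO replicate 2 (limma adjusted p = 0.0483) and -0.08 without KO replicate 1 (limma adjusted p = 0.762, the lowest of the other settings run). No other member was called under any setting run, where limma called 1.21% of all tested genes without KO replicate 2 and 0.0271% without WT replicate 2. Sec61g shares 26.1% of its sampled sequence with other annotated genes, pseudogenes among them, and is uncertain.

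Sec61a2, the minor alpha subunit gene (chr2:5870987-5895432, minus strand), had the most negative log2 difference of the 51 tested members in FPKM. It was at 9.29 and 13.9 FPKM in WT against 7.21 and 4.22 in KO replicates 1 and 2, a log2 difference of -0.92 (SE 0.338, limma adjusted p = 0.948). With edgeR on recovered fragments the difference was -0.40 (edgeR adjusted p = 0.999). The gene overlaps Nudt5 on the opposite strand and shares its locus in the table with 3 other genes, so it is uncertain. Sec62, which assists post-translational translocation, was at 27.3 and 26.8 FPKM in WT against 34.5 and 35.5 in KO replicates 1 and 2, with the groups apart on FPKM and on fragments (log2 difference 0.36, SE 0.194, limma adjusted p = 0.948). Sec63, a J-domain partner of the channel, was at 24.1 and 32.9 FPKM in WT, with KO replicate 1 at 48 and KO replicate 2 at 32.2, and the groups overlapped.

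COPII genes were mostly a little lower in the KO-labelled group, 9 of 12 tested, with a median log2 difference of -0.11. Their summed level was 340.2 and 349 FPKM in WT against 284 and 364 in KO replicates 1 and 2, so the KO-labelled libraries lay on either side of WT. Against the WT mean, KO replicate 1 had a class median of -0.30 and KO replicate 2 one of 0.07 on the log2 scale, so the direction rests on KO replicate 1. In FPKM both KO-labelled libraries lay below WT for 1 of them (Sec13) and above WT for 1 (Sec31b), where the shares over all tested genes were 15.1% and 20.0%. In CPM they lay below WT for 3 (Sec24b, Sec31a and Sec16a) and above WT for 1 (Sec31b), where the shares were 17.1% and 16.4%. Sar1a, the GTPase that starts coat assembly, was at 46.2 and 47.5 FPKM in WT, with KO replicate 1 at 34.8 and KO replicate 2 at 52.9. Sar1b, its paralog, followed the same order at 30.4 and 31.5 FPKM in WT, with KO replicate 1 at 20.7 and KO replicate 2 at 40.5. Both GTPases thus had KO replicate 1 lowest and KO replicate 2 highest. Sar1b and Sec24a lie in 1 locus of the table that holds 19 genes.

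Of the cargo-binding inner coat, Sec24c was the highest of 4 paralogs and Sec24a the lowest by mean level. Sec24c was at 30.7 and 29.4 FPKM in WT against 24.5 and 31.2 in KO replicates 1 and 2. Sec24b was at 18.7 and 20.8 FPKM in WT, with KO replicate 1 at 18.7 and KO replicate 2 at 13.3. Sec24d stood at 14.4 and 16.5 FPKM in WT against 12.1 and 16.1 in KO replicates 1 and 2. Sec24a was at 13.3 and 13.5 FPKM in WT against 18 and 13.3 in KO replicates 1 and 2. The groups overlapped in FPKM for all 4, and only for Sec24b did both KO-labelled libraries lie below WT on fragments (log2 difference -0.35 with edgeR, adjusted p = 0.999). Sec23b, the GTPase-activating partner of Sec24, was at 42.3 and 40.6 FPKM in WT against 33.4 and 43.5 in KO replicates 1 and 2. Sec23a was lower throughout, at 10.3 and 9.95 FPKM in WT against 10.1 and 13.8 in KO replicates 1 and 2.

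In the outer coat, Sec31a was the highest COPII member, at 63.6 and 68.2 FPKM in WT, with KO replicate 1 at 49.9 and KO replicate 2 at 65.1. Sec13, its cage partner, was the steadiest COPII member in FPKM, at 32.2 and 31.4 FPKM in WT against 31.3 and 28.4 in KO replicates 1 and 2. Sec31b, the minor paralog of Sec31a, was at 2.29 FPKM in both WT libraries against 2.83 and 3.54 in KO replicates 1 and 2. Sec31b overlaps Gm20538 on the same strand and lies in a locus of the table that holds 3 genes, so it is uncertain. Sec16a, the scaffold of ER exit sites, was at 35.6 and 37.1 FPKM in WT against 27.6 and 41.6 in KO replicates 1 and 2. In CPM Sec16a was at 291 and 297 in WT against 254 and 276, so KO replicate 2 changed sides. The paralog Sec16b had 0.188 FPKM in WT replicate 1, was listed at 0 in WT replicate 2 and had 0.275 and 0.29 FPKM in KO replicates 1 and 2, from 4, 0, 14 and 10 fragments.

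The Tmed genes, grouped by symbol as p24 receptors, ranged from over 100 FPKM to no fragment at all. Tmed2 was the highest, at 108 and 139 FPKM in WT against 117 and 146 in KO replicates 1 and 2, and the second was Tmed10, at 51.2 and 58.3 FPKM in WT against 51.4 and 65 in KO replicates 1 and 2. These proteins assemble with Tmed9 and a gamma-class member such as Tmed3 or Tmed7 in the early secretory pathway. Tmed9 was at 36.6 and 37 FPKM in WT against 37.8 and 40 in KO replicates 1 and 2, and Tmed3 stood between 35.2 and 43.9 FPKM over all 4 libraries. Tmed7, on the other hand, had KO replicate 1 lowest at 24.7 FPKM and KO replicate 2 highest at 37.8 FPKM, around 29.2 and 29.7 FPKM in WT. Tmed7 overlaps Ticam2 on the same strand and is uncertain. Tmed1 (4.6 to 6.84 FPKM) and Tmed8 (3.1 to 4.09 FPKM) were low in every library, and their groups overlapped. Tmed6 was at 2.63 and 2.36 FPKM in WT against 1.66 and 1.1 in KO replicates 1 and 2, from 16 fragments or fewer in each library. Tmed11 had 0 fragments in all, which allows up to 0.72 CPM (fragments scaled by library depth alone) in the shallowest library and 0.316 CPM in the deepest. Of 10 tested Tmed genes 6 were higher and 4 lower. Their median log2 difference was 0.03, and it turned to -0.05 on fragments with edgeR. In 1 of them (Tmed9) both KO-labelled libraries lay above WT in FPKM, and in 1 (Tmed6) below, where the shares over all tested genes were 20.0% and 15.1%. Tmed2 and Tmed10 share 27.1% and 11.3% of sampled sequence with pseudogenes or other genes and are uncertain.

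In FPKM, Tmed4, another p24 gene, had KO replicate 1 above and KO replicate 2 below WT. It was at 31 and 27.9 FPKM in WT, with KO replicate 1 at 43.3 and KO replicate 2 at 20.1. In CPM it was at 67.4 and 60.5 in WT against 63.6 and 41.5 in KO replicates 1 and 2, so that KO replicate 1 then lay between the WT libraries. Tmed5 was uneven within each group, at 17.1 and 7.97 FPKM in WT against 6.32 and 12.9 in KO replicates 1 and 2. Its log2 difference was -0.34 in FPKM and 0.34 with edgeR. In the Sec22 family, Sec22b is a SNARE that pairs with syntaxins on vesicles between ER and Golgi. In FPKM 2 of 3 genes had KO replicate 1 below and KO replicate 2 above both WT libraries, against 17.3% of all tested genes. Sec22b was at 27.6 and 33.2 FPKM in WT, with KO replicate 1 at 19.3 and KO replicate 2 at 36.1, and Sec22a at 11.3 and 10.4 FPKM in WT against 8.46 and 19.8 in KO replicates 1 and 2. Sec22c was the lowest of the 3 genes, at 1.77 to 3.88 FPKM, with the groups overlapping.

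Within the COPI coatomer, the epsilon and zeta-2 subunits were lower in both KO-labelled libraries and the remaining 7 overlapped WT. Cope, the epsilon subunit (chr8:70302518-70312993, plus strand), was at 44.5 and 46.3 FPKM in WT against 27.7 and 31.8 in KO replicates 1 and 2. Its log2 difference was -0.60 (SE 0.199, limma unadjusted p = 0.025, adjusted p = 0.948) and stayed between -0.70 and -0.50 without any 1 library. Copz2, the minor zeta subunit, was at 15.9 and 12.6 FPKM in WT against 10.3 and 8.6 in KO replicates 1 and 2 (log2 difference -0.54, SE 0.247, limma adjusted p = 0.948). On fragments Cope was likewise apart, at 55.7 and 62.1 CPM in WT against 37.7 and 38.4 in KO replicates 1 and 2. Copz2 was at 12.5 and 11.3 CPM in WT against 10.5 and 5.66 in KO replicates 1 and 2. Its KO replicate 1 value was thus close to WT replicate 2, and only KO replicate 2 stood clearly apart. The share of all tested genes with both KO-labelled FPKM values below both WT values was 15.1%, against 2 of 9 coatomer genes.

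For the other coatomer subunits the groups overlapped. Copa, the alpha subunit that binds dilysine cargo signals, was at 67.2 and 66.4 FPKM in WT, with KO replicate 1 at 52.9 and KO replicate 2 at 72.3. Arcn1, the delta subunit, was at 55.5 and 59.4 FPKM in WT against 50.6 and 73.4 in KO replicates 1 and 2. Copb1 and Copb2, the beta subunits, lay at 29.9 to 39.7 FPKM and 39.9 to 54.4 FPKM, both highest in KO replicate 2, with log2 differences of 0.14 and 0.17 (SE 0.226 and 0.225), and the gamma subunit Copg1 was at 38.1 and 33.9 FPKM in WT against 38.4 and 29.5 in KO replicates 1 and 2. Copg2, the second gamma subunit, was at 25.2 and 17 FPKM in WT against 16.3 and 23.1 in KO replicates 1 and 2. Copz1, the major zeta subunit, was among the steadiest, at 45.7 and 49.2 FPKM in WT against 52.2 and 47.7 in KO replicates 1 and 2.

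Arf1 was the most abundant of the 53 genes. This GTPase, which loads coatomer onto Golgi membranes, was at 165 and 158 FPKM in WT, with KO replicate 1 at 119 and KO replicate 2 at 167. Arf6, the plasma membrane and endosome member, was at 99.9 and 109 FPKM in WT against 83.2 and 119 in KO replicates 1 and 2. Arf4 was the most variable of the class, at 61.7 and 89.5 FPKM in WT, with KO replicate 1 at 45.8 and KO replicate 2 at 103. For Arf1, Arf4 and Arf6 alike KO replicate 1 lay below and KO replicate 2 above both WT libraries in FPKM. In CPM this held for Arf4 and Arf6. Arf1 was there at 323 and 312 in WT against 253 and 313 in KO replicates 1 and 2, with KO replicate 2 between the WT libraries.

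Arf5 (chr6:28423560-28426602, plus strand) had the lowest unadjusted p of all members. It was at 64.8 and 58.4 FPKM in WT against 31.2 and 44.1 in KO replicates 1 and 2, below both WT values in each. Its log2 difference was -0.72 (SE 0.238, limma unadjusted p = 0.0242, adjusted p = 0.948) and lay between -0.96 and -0.47 without any 1 library, and edgeR gave -0.79 (unadjusted p = 0.00751, adjusted p = 0.999). In CPM it stood at 69.4 and 60.6 in WT against 35.6 and 39.8 in KO replicates 1 and 2. Arf5 overlaps Gcc1 on the opposite strand and shares its locus in the table with 2 other genes, so it is uncertain. Arf2 was the lowest Arf gene, at 8.83 and 10.6 FPKM in WT against 11.8 and 14.6 in KO replicates 1 and 2. Arf3 overlapped between groups, at 42.1 and 42.9 FPKM in WT against 45.7 and 35.1 in KO replicates 1 and 2.

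The golgins lay on both sides of WT, 3 higher and 2 lower, with a median log2 difference of 0.30. The 5 genes summed to 76.8 and 82 FPKM in WT and to 91 and 90.2 FPKM in KO replicates 1 and 2, and to 346.3 and 352 CPM in WT against 441 and 370.3 CPM. Without Golga2 the FPKM sums were 57.7 and 64.1 in WT against 61.3 and 65.5 in KO replicates 1 and 2, which overlap, while the CPM sums stayed apart, at 274 and 286 in WT against 359 and 315. Golga4, a trans-Golgi tether, was at 14.1 and 14.5 FPKM in WT against 20.5 and 15.4 in KO replicates 1 and 2. Golga5 (golgin-84) was at 10.2 and 12.4 FPKM in WT against 14.4 and 14 in KO replicates 1 and 2. Golga2, which encodes the cis-Golgi tether GM130, was at 19.2 and 17.9 FPKM in WT against 29.7 and 24.7 in KO replicates 1 and 2 (log2 difference 0.52, SE 0.215, limma adjusted p = 0.948). Its fragments gave a difference of -0.02 with edgeR, and it overlaps Swi5 on the opposite strand, so it is uncertain. Golga3 stood at 11.9 to 14.8 FPKM with the groups overlapping, although its fragments lay above both WT libraries in each KO replicate. Golga7, a palmitoyltransferase cofactor, was at 21.2 and 22.4 FPKM in WT, with KO replicate 1 at 12.1 and KO replicate 2 at 24.2. In FPKM 3 of the 5 golgins were above WT in both KO-labelled libraries, where the share over all tested genes was 20.0%.

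**Figure D2:**
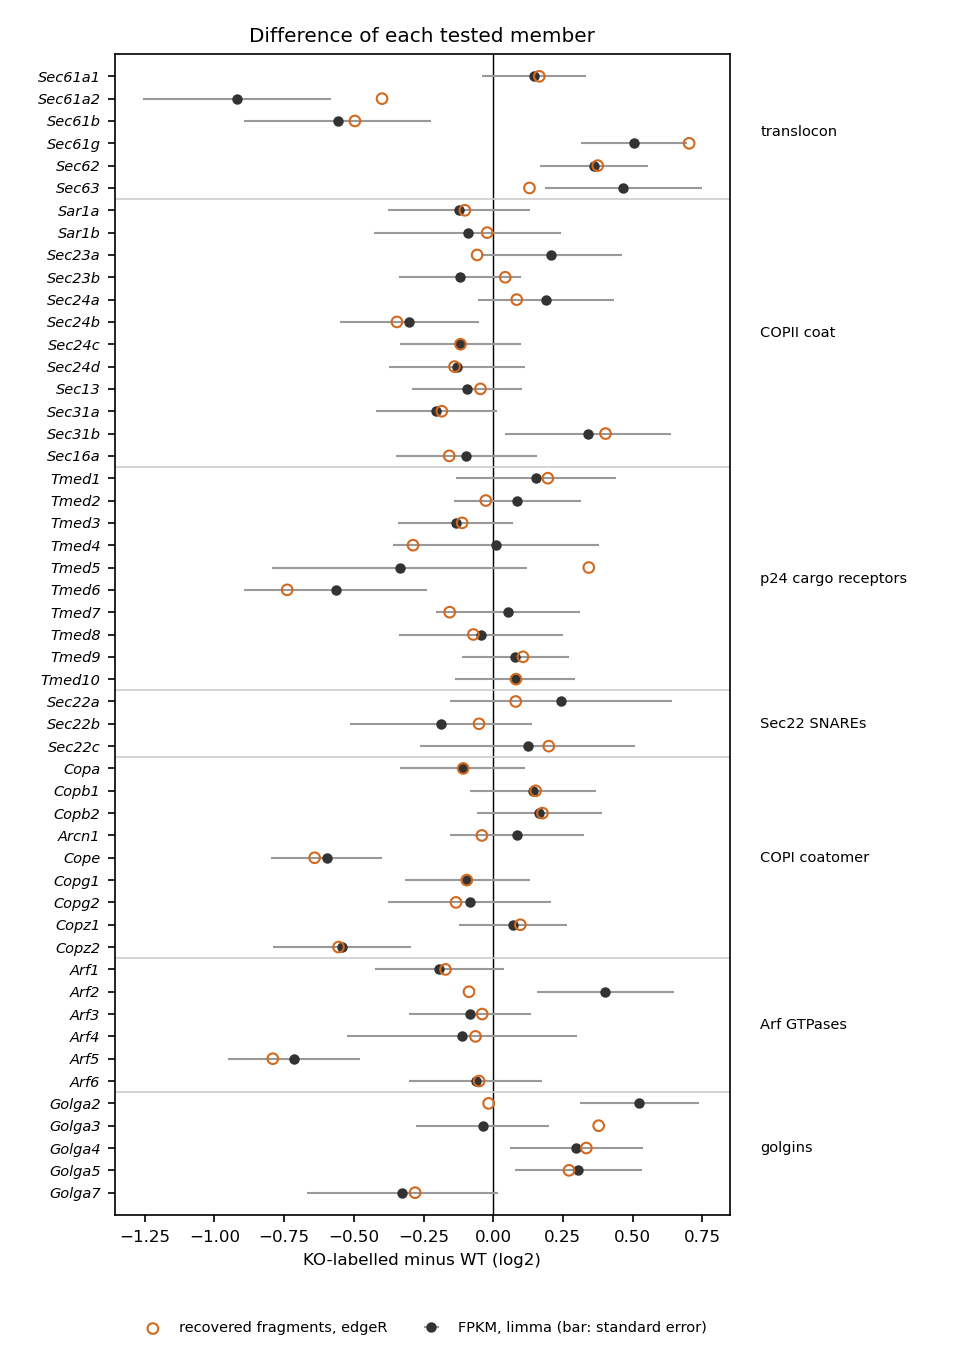
Difference between KO-labelled and WT libraries (log2) for the 51 tested members, by role: filled points from limma on log2(FPKM + 1) with bars of 1 standard error, open circles from edgeR on recovered fragments. No member passed the threshold, and filled and open symbols part most for Tmed5, Golga2, Sec61a2, Arf2 and Golga3.

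Over all members the gap between the KO replicates was wider than the gap between the groups. As a difference from the mean of the WT pair on log2(FPKM + 1), members had a median of -0.18 (KO replicate 1) and 0.13 (KO replicate 2), where all tested genes had medians of 0.014 and 0.064. On recovered fragments the same medians were -0.19 and 0.076 for members. KO replicate 1 lay below both WT libraries in 27 of 51 members (38.9% of all tested genes) and KO replicate 2 above both in 29 (45.4%). KO replicate 1 was below KO replicate 2 in 34 of 51 members (66.7%), against 53.1% of all tested genes. In 15 members (29.4%) KO replicate 1 lay below and KO replicate 2 above both WT libraries, against 17.3% of all tested genes, and the reverse held in 4, against 13.0%. On fragments these were 12 members (16.0% of all tested genes) and 5 (17.1%). The 15 in FPKM were Sar1a, Sar1b, Sec23b, Sec24c, Sec16a, Tmed7, Tmed8, Sec22a, Sec22b, Copa, Arcn1, Arf1, Arf4, Arf6 and Golga7. By class, the median in KO replicate 1 was lowest for Arf GTPases (-0.38) and highest for golgins (0.32). KO replicate 1 is also the library with the muscle transcripts and the lowest AT2 marker sum. The genotype given differs as well, Fbxo45 knockout for KO replicate 1 and Fbxo46 knockout for KO replicate 2. These fall on the same libraries and cannot be told apart here, and their part in these values was not tested.

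**Figure D3:**
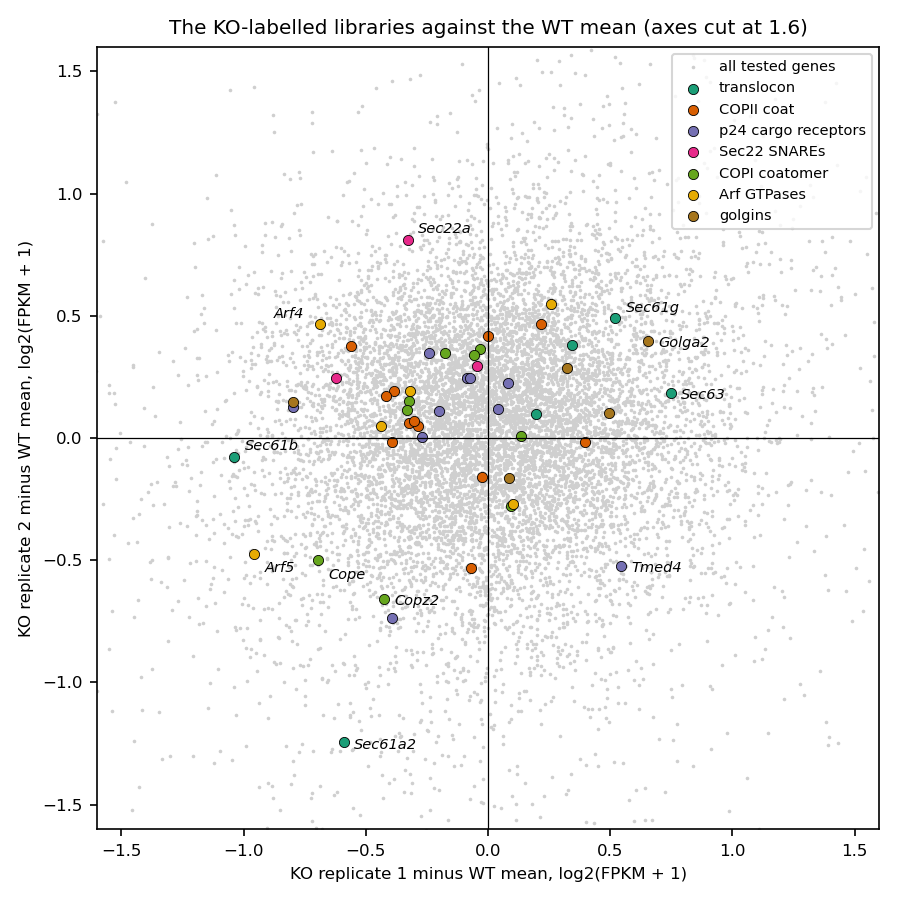
Each tested gene by its difference from the WT mean in KO replicate 1 (horizontal) and KO replicate 2 (vertical), on log2(FPKM + 1), with members coloured by role and all 11055 tested genes in grey; axes end at 1.6 and genes beyond are not drawn. Many COPII, Arf and Sec22 points lie in the upper left, lower in KO replicate 1 and higher in KO replicate 2, while Arf5, Cope, Copz2 and Sec61a2 lie in the lower left.

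Where a coat has paralogs for 1 position, the same paralog led in every library for 9 of the 10 pairs with a value throughout. Sec31a exceeded Sec31b by 17.7-fold to 29.8-fold and Sec61a1 exceeded Sec61a2 by 6.18-fold to 21.2-fold. Sec23b exceeded Sec23a by 3.14-fold to 4.13-fold, Copz1 exceeded Copz2 by 2.87-fold to 5.54-fold, and Sec24c exceeded Sec24d by 1.79-fold to 2.13-fold. The exception was Arf4 over Arf5, at 0.951 in WT replicate 1 and 1.47 to 2.34 in the others. The lead of Sec24b over Sec24a was near a tie in KO replicates 1 and 2, at 1.042 and 1.004. These are ratios of FPKM, a scale per transcript length.

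Some of the 10 paralog ratios also differed between the groups without overlap in FPKM. Those of Sec24c to Sec24d, Sar1a to Sar1b, Copg1 to Copg2, Arf1 to Arf3 and Arf4 to Arf5 overlapped. On fragments Arf4 to Arf5 was apart, at 1.7 and 2.39 in WT against 2.49 and 4.14 in KO replicates 1 and 2. There KO replicate 1 was close to WT replicate 2, and both genes are uncertain. Sec24b to Sec24a stood at 1.4 and 1.54 in WT, with KO replicate 1 at 1.04 and KO replicate 2 at 1. On fragments the ratio was 1 and 0.946 in WT against 0.941 and 0.535 in KO replicates 1 and 2. There KO replicate 1 was thus close to WT replicate 2, and only KO replicate 2 stood clearly apart. Sec31a to Sec31b, of which Sec31b is uncertain, was 27.7 and 29.8 in WT against 17.7 and 18.4 in KO replicates 1 and 2. Copz1 to Copz2 went the other way, at 2.87 and 3.91 in WT against 5.08 and 5.54 in KO replicates 1 and 2. Sec61a2 is uncertain and Sec61a1 lies in a locus of the table that holds 10 genes. The ratio of Sec61a1 to Sec61a2 was 8.74 and 6.18 in WT against 13.3 and 21.2 in KO replicates 1 and 2. The group difference of that log2 ratio was 1.19 in FPKM and 0.55 on fragments. Copz1 to Copz2, Sec61a1 to Sec61a2 and Sec31a to Sec31b were also apart on fragments, whereas Sec23b to Sec23a, at 4.13 and 4.08 in WT against 3.3 and 3.14 in KO replicates 1 and 2, overlapped there. For single genes in FPKM, both KO-labelled libraries lay above WT in 20.0% and below WT in 15.1% of all tested genes. With 2 libraries against 2, a two-sided exact permutation p cannot fall under 0.333. The ratios are given as a description and were not tested.

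**Figure D4:**
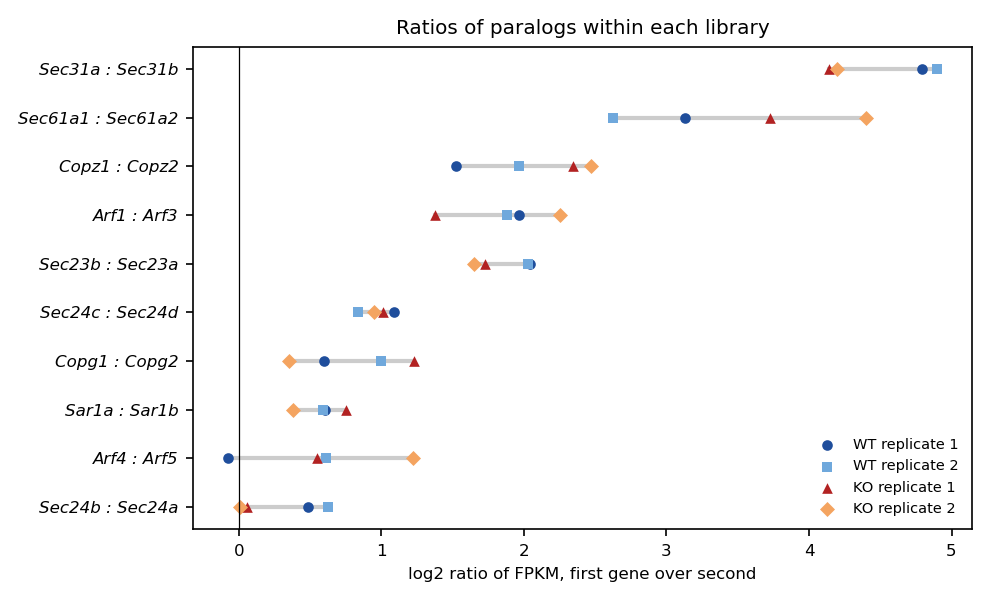
log2 ratio of FPKM between paralogs in each library for 10 pairs, with a grey bar from the lowest to the highest library; Sec16a to Sec16b is left out because Sec16b is at 0 in WT replicate 2. Sec31a to Sec31b has the highest ratios, and for Sec24b to Sec24a the KO-labelled libraries lie near 0.

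A short sequence linked to the ER stress response stood in the promoters of 6 members. The letters TGACGTGG, the core of the element bound by the unfolded protein response factors XBP1 and ATF6, were searched on both strands of RefSeq windows (GRCm38.p6) from 250 bases before to 50 bases after each transcript start. They occurred in 7 of 53 windows of the 45 members with an entry (13.2%), in 0.676% of all 32851 windows and in 0.884% of the 10631 windows of genes at 1 FPKM or more in at least 2 libraries. The 7 windows belong to Arf1, Copb1, Copb2, Sec16b, Sec23a and Sec24d, since both windows of Arf1 hold the same match. The first 6 bases of the motif are also those of TGACGTCA, a cyclic AMP response element found in 1.89% of member windows and 3.06% of those of tested genes. The longer ER stress element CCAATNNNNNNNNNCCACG was in 0 of 53 member windows and in 0.132% of those of tested genes. The 4 matches that end before a RefSeq start are shown, in the direction of each gene, with the motif in capitals (on the opposite strand for Copb1).
Sec24d, chr3:123267460-123267487, plus strand: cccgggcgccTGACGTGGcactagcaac
Sec16b, chr1:157506742-157506769, plus strand: tctgtgtggcTGACGTGGcacggcagtt
Arf1, chr11:59228229-59228256, minus strand: cggcaggcgcTGACGTGGctgccgtcag
Copb1, chr7:114254691-114254718, minus strand: ccgcccccttCCACGTCAgccaaggact
The match begins 26 bases before the start in Sec24d, 44 in Sec16b, 28 in Copb1 and 84 before 1 of the 2 starts of Arf1. These distances hold for the RefSeq starts, since by the bounds of GENCODE M21 all 4 matches lie inside the gene. The 5 tested genes with a match had log2 differences on both sides of 0: -0.19 for Arf1, 0.14 for Copb1, 0.17 for Copb2, 0.21 for Sec23a and -0.13 for Sec24d. A match describes letters in a window and says nothing of binding in these cells.

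Of the other genes of the pathway, taken from 4 lists, 0 passed the test. Of 20 tested translocon partners (signal recognition particle, translocon-associated and signal peptidase genes) 12 were higher and 8 lower, with a median log2 difference of 0.017. Spcs1, a signal peptidase subunit, was at 64.4 and 56.9 FPKM in WT against 68.4 and 84.5 in KO replicates 1 and 2. Sec11c, a catalytic subunit, was at 40 and 39.8 FPKM in WT against 26.7 and 34.2 in KO replicates 1 and 2. Sec11a, the other catalytic subunit, was at 21.4 and 22.7 FPKM in WT against 26.6 and 33.7 in KO replicates 1 and 2. In CPM the groups overlapped for Sec11a, and its log2 difference was 0.10 with edgeR against 0.43 in FPKM. Ssr2, a translocon-associated protein, was low in KO replicate 2 alone (40.2 FPKM, against 72.2 to 77.4 FPKM elsewhere). Of 23 COPII regulators and cargo receptors 11 were higher and 12 lower (median -0.025). Mia2, an exit site organiser for large cargo, was at 7.4 and 7.56 FPKM in WT against 11.9 and 10.3 in KO replicates 1 and 2. Preb, the exchange factor of Sar1 (Sec12), was at 34.2 and 39.5 FPKM in WT against 27.4 and 25.7 in KO replicates 1 and 2, but its difference was 0.13 with edgeR against -0.46 in FPKM. Pdcd6, the calcium-binding partner of Sec31, was at 18.6 and 16.2 FPKM in WT against 24.9 and 23.7 in KO replicates 1 and 2. Cnih4, a cargo receptor, was low mainly in KO replicate 1 (7.07 FPKM, against 13.9 to 16 FPKM elsewhere).

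Of 15 Arf regulators and retrieval receptors 7 were higher and 8 lower (median -0.002). Arfgef2, an Arf exchange factor, was at 32.6 and 34.1 FPKM in WT against 55 and 42.6 in KO replicates 1 and 2. Its fragments gave a log2 difference of 0.04 with edgeR. Arfrp1, an Arf-related GTPase, was at 16.1 and 12.1 FPKM in WT against 18.7 and 20.5 in KO replicates 1 and 2. The GTPase-activating gene Arfgap1 stood at 13.3 to 18.1 FPKM and the retrieval receptor Kdelr3 at 1.79 to 3.54 FPKM. Of 33 tethers and SNAREs 22 were higher and 11 lower (median 0.089, against 0.035 over all tested genes). Nsf, the ATPase that recycles SNAREs, was at 12.4 and 12.3 FPKM in WT against 18.5 and 22.4 in KO replicates 1 and 2 (log2 difference 0.68, SE 0.222, limma adjusted p = 0.948). Trappc5, a subunit of the TRAPP tethering complexes, was at 6.28 and 5.95 FPKM in WT against 2.85 and 1.65 in KO replicates 1 and 2 (log2 difference -1.15, SE 0.313, limma adjusted p = 0.948). Blzf1, a golgin partner, was at 10.3 and 8.92 FPKM in WT against 13.8 and 15.1 in KO replicates 1 and 2, and the ER syntaxin Stx18 at 10 and 11 FPKM in WT against 8.14 and 3.63. For Nsf, Trappc5, Blzf1 and Stx18 the groups were apart on fragments too, where the shares over all tested genes were 16.4% above and 17.1% below. The gap was small for Blzf1, at 30 and 24.3 CPM in WT against 31.7 and 42.5 in KO replicates 1 and 2. Stx18 was at 14.2 and 16.2 CPM in WT against 11.8 and 6.37. For both genes KO replicate 1 was close to WT replicate 1. Over the 4 lists 0 genes passed the limma threshold, and 2 of 91 tested (2.2%), Nsf and Trappc5, had an unadjusted p under 0.05, against 4.84% of all tested genes. The tethers and SNAREs summed to 588 and 625 FPKM in WT against 668 and 669 in KO replicates 1 and 2, and to 1826 and 1895 CPM in WT against 1954 and 2019, without overlap. The sums of the other lists overlapped between the groups in FPKM and in CPM. Both KO-labelled FPKM values lay above both WT values in 9 of the 33 tethers and SNAREs and below in 4, where the shares over all tested genes were 20.0% and 15.1%.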

How the data were processed

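RNA sequencing was made from sorted AT2 cells of 2 WT and 2 KO-titled libraries, from ribosome-depleted stranded libraries per the labels' protocols. Cuffdiff 2.2.1, Cufflinks, HISAT2 2.0.4, cutadapt 1.9.3 and build mm10 are listed per the submitters' processing notes. No source used here gives the handling of strand or of reads with several matches. FPKM values are the authors' own, per the file headers. The deposited counts are estimated counts that, from their values, are scaled by 1 constant per library; dividing by it made 90.9% to 92.5% of positive values whole within 0.05, and rounded values are called recovered fragments.

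Genes at 1 FPKM or more in at least 2 libraries (11055) were tested with limma 3.58.1 (trend, R 4.3.3) on log2(FPKM + 1), KO minus WT, with Benjamini-Hochberg adjustment at 0.05. edgeR 4.0.16 (quasi-likelihood, TMM) and DESeq2 1.42.0 were run on recovered fragments as alternatives, beside other pseudocounts, filters, scalings, variance models, a replicate block and leaving out each library. FPKM stayed the main unit because it allows levels to be compared between genes. The procedure was tested on simulated data.

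The rule for named genes takes all members, Fbxo45, Fbxo46 and Sftpc as checks and, of each pathway list, the 2 with the smallest unadjusted p per direction. Members and lists were chosen with earlier results of these data known. Overlaps and shared sequence (stretches of 100 bases, 1 in 4) are from GENCODE M21 (GRCm38), and promoters are from RefSeq (GRCm38.p6). Genes that share a locus in the table numbered 19 of 53.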

Additional observations from a re-analysis of the deposited data

How the results depend on the processing

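No gene was called over the whole table with limma on FPKM (535 at an unadjusted p under 0.05), while DESeq2 on recovered fragments called 7 and edgeR 0 (372 at an unadjusted p under 0.05). Leaving out 1 library gave 0 to 134 genes, 134 without KO replicate 2 and 3 without WT replicate 2; the lone library of a group is then assumed to vary like the other pair. Among the members 0 were called under each setting except without KO replicate 2, which called 1 (Sec61b), so the range was 0 to 1. The members' median log2 difference was -0.063 and ran from -0.18 without KO replicate 2 to 0.13 without KO replicate 1, the opposite direction. With the replicate block 0 genes and 0 members were called and the median was -0.063; same-numbered libraries deviated together with r = 0.026 over genes, and the numbers are not said to pair animals. The sign of a member's difference turned in 18 of 51 members without KO replicate 1, in 12 without KO replicate 2 and in 5 each without WT replicate 1 or 2, and 20 members kept their sign in all 4. It turned in 10 with edgeR and in 1 with each of the other scalings. Depth limits Tmed6, Sec16b and Tmed11 most.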

Other observations

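In 6 tested members FPKM and recovered fragments differed by more than 0.3 in the log2 difference between groups. The ratio of CPM to FPKM, which holds the implied transcript length in kilobases and any scaling of the library, then differed between libraries. For Tmed9, without such a gap, the ratio was 1.5 and 1.5 in WT and 1.65 and 1.43 in KO replicates 1 and 2. For Golga2 it was 3.78 and 3.71 in WT and 2.77 and 2.25 in KO replicates 1 and 2. For Arf2 it was 2.58 and 2.52 in WT and 1.79 and 1.78 in the KO-labelled libraries, and the log2 difference was 0.40 in FPKM and -0.09 with edgeR. Sec63 had 6.99 and 6.88 in WT against 4.64 and 6.62 in KO replicates 1 and 2, and Tmed5 had 1.84 in WT replicate 1 and 4.13 to 4.43 in the other libraries. Sec61a2 ranged from 1.19 to 2.38 and Golga3 from 5.1 to 8.23.

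Sec61g stood at like FPKM in both KO-labelled libraries, 48.3 and 47.3, but not in CPM. It was at 19 and 19 CPM in WT, 39.8 CPM in KO replicate 1 and 22.4 CPM in KO replicate 2.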
